A study of Homo sapiens with 6 samples.

Results

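The E proteins TCF3, TCF4 and TCF12, the ID proteins ID1, ID2 and ID3, the Ikaros family factors IKZF1, IKZF2 and IKZF3, and the LIM-only protein LMO2 were followed in a follicular lymphoma cell line grown as aggregates or in suspension. These 10 of the 19775 genes on the array were represented by 47 of the 54613 probe sets that were not controls, namely those annotated with exactly 1 of these gene symbols. TCF3 had 14 probe sets, IKZF1 9, TCF4 8, TCF12 4, IKZF2 and IKZF3 3 each, ID2 and LMO2 2 each, and ID1 and ID3 1 each. A probe set is a group of short array probes directed at a transcript, and probe sets of 1 gene are readings of the same RNA, not replicates.

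E proteins are basic helix-loop-helix transcription factors that bind DNA as dimers at E-box sequences and drive B cell development. ID proteins have the helix-loop-helix but no DNA-binding region, so they pair with E proteins and keep them off DNA. Ikaros family factors are zinc finger proteins that regulate lymphoid genes and recruit repressor complexes, and LMO2 bridges helix-loop-helix and GATA factors in larger complexes and marks germinal centre B cells.

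All samples were of RL, an established human B lymphoid line with genotype t(14,18)+, and none was treated. MALC are multicellular aggregates of lymphoma cells, collected after 10 days of culture, and suspension cells were collected in exponential growth; each form had 3 samples, numbered 1 to 3, with 1 Affymetrix U133 array per sample. The culture forms thus also differed in growth phase or culture time, which cannot be told apart from aggregation, and a single line stands for the disease. The labels do not describe the samples as separate cultures, so every p-value below measures the spread among these 6 arrays, part or all of which may be technical.

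Deposited signals were linear, array medians ran from 80.6 to 81.5, and with 6 arrays the precision is limited by their number. B cell identity was checked with MS4A1, CD79A, CD79B and PAX5, all of which were above the filter on low signals, with summed signals of 24864 to 28677 in MALC and 25065 to 29913 in suspension. Of 5 T cell markers 4 were above that filter, with sums of 496 to 543 in MALC and 672 to 721 in suspension; CD3D, CD3E and CD3G lay between 51.3 and 114 in every array, and CD247 at 225 to 269 in MALC and 381 to 438 in suspension. Of 5 fibroblast markers 3 passed it, with sums of 437 to 487 in MALC against 499, 954 and 580 in suspension 1, 2 and 3. COL1A2, which passed, read 46.0 to 54.2 in MALC and 54.1, 347 and 127 in suspension 1, 2 and 3. The others that passed were COL1A1 (266 to 289 in MALC, 284 to 297 in suspension) and DCN (89.5 to 108 and 105 to 130). COL3A1 and LUM did not pass the filter. COL3A1 read 19.5 to 24.2 in MALC and 25.7, 174 and 32.7 in suspension, and LUM at most 18.8 in any array. Myeloid markers (2 of 5 above the filter) summed to 269 to 288 and 269 to 306, and plasma cell markers (4 of 5) to 3015 to 3800 and 3082 to 3356. For the ACTB control probe sets, the signal at the 3′ end over that at the 5′ end was 1.22 to 1.33 in MALC arrays and 1.31 to 1.54 in suspension arrays. For GAPDH this ratio was 1.012, 1.016 and 1.018 in MALC and 1.037, 1.047 and 1.059 in suspension, without overlap. The part of these values in the results below was not tested. Samples 2 and 3 of each form were closer to each other (Pearson r across tested probe sets of 0.998 in both forms) than either was to sample 1 (0.991 to 0.992), so that the 3 samples may stand for fewer independent units, and calls that rest on single arrays are given below without them. List genes that were named after their values were seen were not examined in this way.

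ID2 rose the most of the 10 genes, TCF4 rose on all of its 8 probe sets, and LMO2 fell on the 1 of its 2 probe sets that was tested. ID1 and ID3 did not pass the test, and TCF3, TCF12, IKZF1 and IKZF3 had some probe sets that passed it and others that did not. Of the 47 probe sets, 43 passed a filter on mean signal (at or above the 40th percentile of all probe sets, a signal of 53.4). In MALC 15 of the 43 were higher and 2 lower (limma on log2(signal + 16), Benjamini-Hochberg adjusted p under 0.05 over 32768 probe sets), where 21.2% of all tested probe sets were higher and 20.4% lower, 41.7% in either direction. Blocked by sample number, 16 were higher and 2 lower, against 44.4% of all tested probe sets in either direction. Their median log2 change was 0.20, against −0.04 over all tested probe sets. In 17 of the 43 all MALC signals lay above all suspension signals, and in 2 below, against 25.9% and 30.3% of all tested probe sets. Because 8 of the 15 rises read TCF4, the count is better seen by gene: with each gene read by its brightest probe set, ID2, TCF4 and TCF12 were higher and LMO2 lower, 3 and 1 of 10, where 19% and 23.7% of all genes tested were. That share lies near the background.

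**Figure D1:**
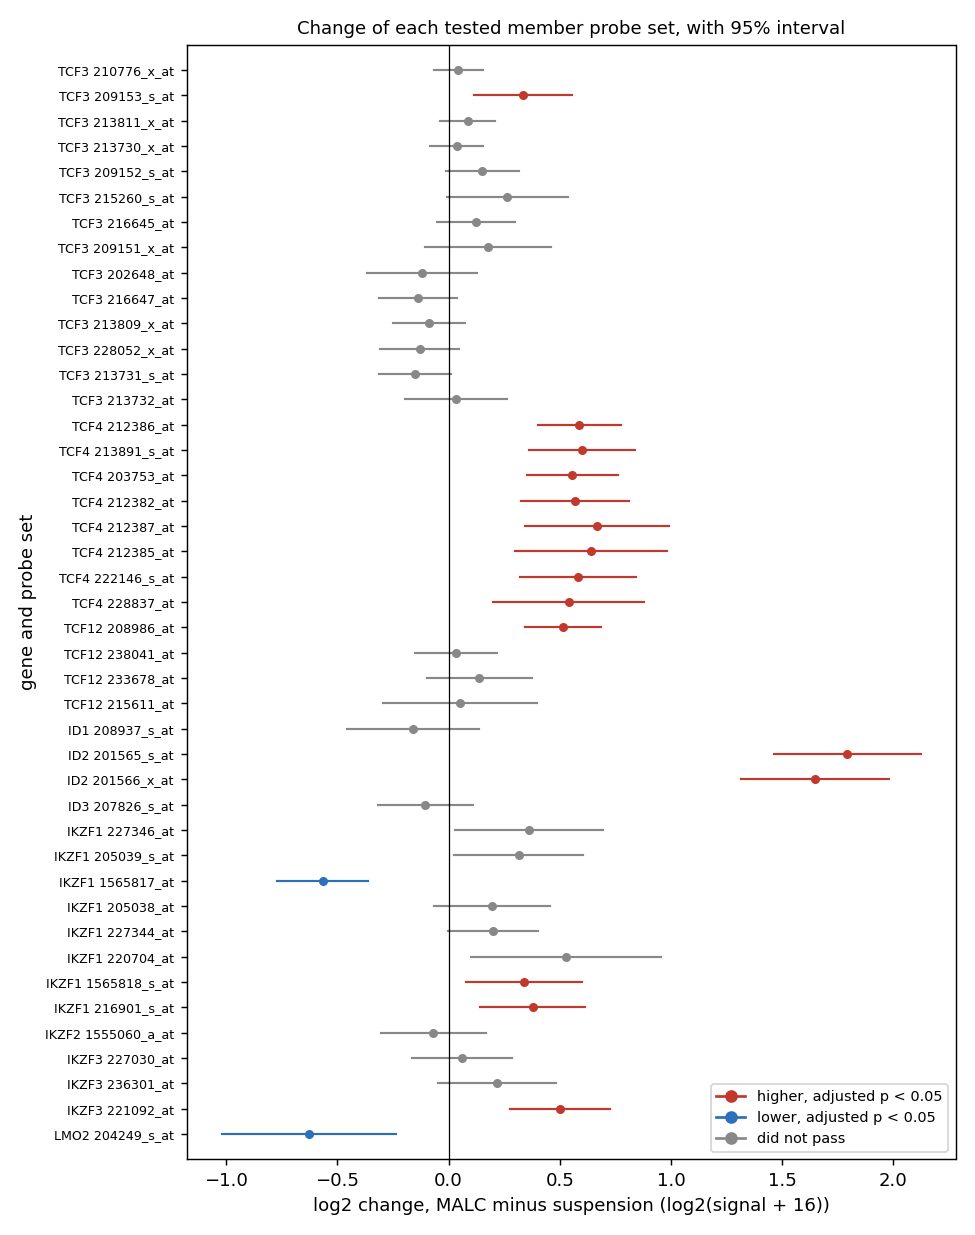
Log2 change (MALC minus suspension, on the log2(signal + 16) scale, x axis) of the 43 tested probe sets, by gene and probe set (y axis), with 95% intervals from limma; colours mark the 15 higher, the 2 lower and the 26 that did not pass. Both ID2 probe sets lie beyond 1.6, the 8 of TCF4 between 0.54 and 0.67, and most of TCF3 near 0.

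The upstream sequences of the ID genes are shown because these paralogs had the widest spread of changes. Each had 1 start in RefSeq (GRCh38.p14), and the 250 bases before it are printed 5′ to 3′ on the gene's strand: ID1 at chr20:31605039-31605288 (plus strand), ID2 at chr2:8681806-8682055 (plus strand) and ID3 at chr1:23559502-23559751 (minus strand). Capitals mark matches to the E-box CANNTG.

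ID1: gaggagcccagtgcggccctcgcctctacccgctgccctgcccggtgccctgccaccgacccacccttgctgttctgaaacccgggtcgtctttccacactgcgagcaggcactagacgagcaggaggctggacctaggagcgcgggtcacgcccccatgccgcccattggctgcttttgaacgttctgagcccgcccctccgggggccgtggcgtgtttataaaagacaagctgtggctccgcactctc

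ID2: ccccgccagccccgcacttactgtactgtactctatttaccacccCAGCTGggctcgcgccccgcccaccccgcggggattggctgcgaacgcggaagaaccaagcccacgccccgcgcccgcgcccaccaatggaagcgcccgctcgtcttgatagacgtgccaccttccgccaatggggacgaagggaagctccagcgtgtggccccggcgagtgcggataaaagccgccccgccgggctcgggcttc

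ID3: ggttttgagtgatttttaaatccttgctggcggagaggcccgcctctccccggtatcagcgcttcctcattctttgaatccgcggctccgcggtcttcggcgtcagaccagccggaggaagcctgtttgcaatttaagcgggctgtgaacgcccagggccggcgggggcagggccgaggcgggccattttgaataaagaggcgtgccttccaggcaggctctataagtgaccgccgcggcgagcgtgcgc

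The ID2 window held 1 E-box, CAGCTG, whose first base lay 205 bases before the start, and the ID1 and ID3 windows held none. Of 35116 windows of the same length before RefSeq starts, 61.8% held CANNTG, 14% CAGCTG, 17.5% CAGGTG and 6.34% CACGTG, the last 3 being forms of CANNTG, all searched on both strands. The motif ACGTG, which is also part of CACGTG, occurred 1 time in the ID2 window and in 18.5% of all windows. Starts were matched for 8 of the 10 genes, all but IKZF3 and LMO2, with 24 starts in all, of which TCF4 had 10 and TCF12 5. A match describes letters only and is not a site.

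ID2 encodes an inhibitor of E proteins that is widely expressed in lymphoid and myeloid cells. Its probe set 201565_s_at had signals of 3310, 4482 and 4764 in MALC 1, 2 and 3 and of 1322, 1137 and 1099 in suspension 1, 2 and 3. Every MALC array lay above every suspension array, with MALC 1 the lowest of the 3. The rise was 3.47-fold (4185 ± 771 against 1186 ± 119, SD, n = 3 each; log2 change 1.79, SE 0.14, limma adjusted p = 0.000223). The second probe set, 201566_x_at, read 568.5, 843 and 809 in MALC and 225, 224 and 217 in suspension, a 3.13-fold rise (adjusted p = 0.000293). Both readings stood above 99% of all tested probe sets in their change, at percentiles of 99.5 and 99.3. They did not differ in their change beyond the spread (difference −0.15, SE 0.09, adjusted p = 0.276 for the within-array difference). Their suffixes, _s_at and _x_at, mark probes that can match more than 1 transcript, and whether other transcripts were read was not tested. Folds come from log2(signal + 16) values, so the folds of dim probe sets are understated.

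ID3, an inhibitor of E proteins whose gene is often mutated in Burkitt lymphoma, was read by 207826_s_at, at 1416, 1678 and 1471 in MALC and 1791, 1569 and 1553 in suspension. The groups overlapped, and the log2 change of −0.11 did not pass (95% interval −0.32 to 0.11, adjusted p = 0.383). Its direction turned with array weights (0.032) and without both arrays numbered 1 (0.0097). ID1, an inhibitor known from endothelial and stem cells, was dim, at 94.4, 87.8 and 73.2 in MALC and 119, 85.8 and 87.6 in suspension, and did not pass either (log2 change −0.16, interval −0.46 to 0.14, adjusted p = 0.344). Neither interval shows the forms to be equal.

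Within each array, the log2 signal of ID2 minus that of ID3 was higher in MALC by 1.90, and that of ID2 minus ID1 by 1.95. In both cases the MALC arrays lay wholly above the suspension arrays. The exact two-sided permutation p was 0.1 for each, the smallest that 3 against 3 allows, and 0.18 adjusted over 9 pairs of paralogs. ID3 minus ID1 moved by 0.054 (exact p = 0.6, 0.675 adjusted).

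**Figure D2:**
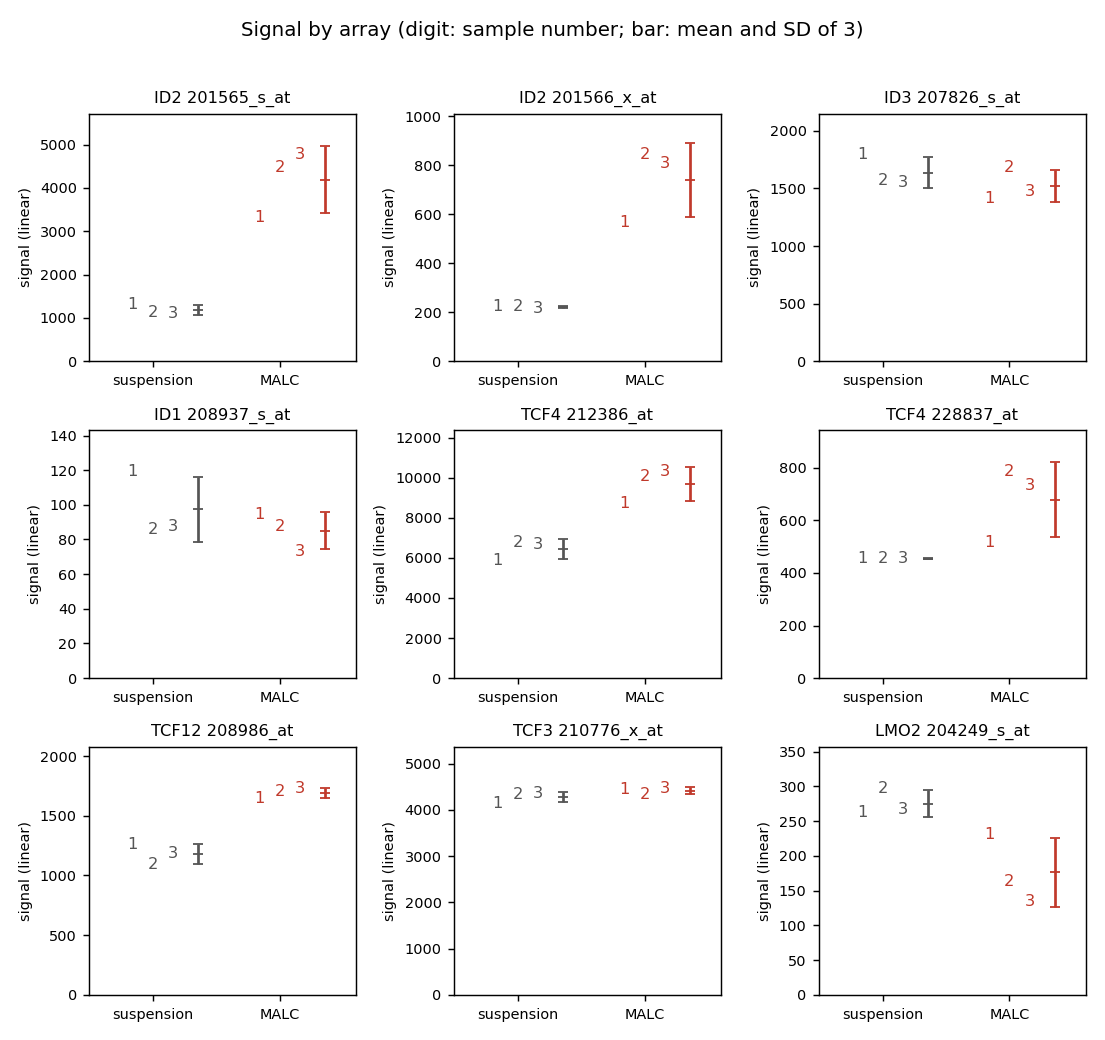
Linear signal (y axis, from 0) of 9 probe sets in suspension and MALC; each digit is the array of that sample number, and the bar is the mean and SD of 3. ID2, TCF4 and TCF12 208986_at lie higher in every MALC array, LMO2 lower, and ID1, ID3 and TCF3 210776_x_at overlap.

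TCF4, also called E2-2, is the E protein that directs plasmacytoid dendritic cell identity and is also used in B cells. All 8 of its probe sets were higher in MALC, with no overlap of the groups in any. The brightest, 212386_at, had signals of 8693, 10061 and 10306 in MALC and 5869, 6743 and 6685 in suspension, a rise (9687 ± 869 against 6432 ± 489, SD, n = 3 each; log2 change 0.59, SE 0.08, adjusted p = 0.00132). The change was largest on 212387_at, at 2835, 3464 and 3603 in MALC and 1684, 2286 and 2268 in suspension (1.59-fold, adjusted p = 0.00716). In both, the array numbered 1 was the lowest of its group. The dimmest, 228837_at, read 517, 785 and 732 against 453, 456 and 454 (log2 change 0.54, adjusted p = 0.0208), with MALC 1 nearest to suspension. That call did not hold when MALC 2 (adjusted p = 0.0758), MALC 3 (0.0777), suspension 2 (0.0585) or suspension 3 (0.0595) was left out, while the other 7 TCF4 calls held in every alternative tried.

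The 8 log2 changes of TCF4 lay between 0.54 and 0.67, and none of the 7 differences from the brightest probe set passed (adjusted p of 0.538 to 0.964). The remaining rises were 1.47- to 1.56-fold, with adjusted p from 0.00224 to 0.0105. RefSeq lists 10 starts for TCF4, and which of them the probe sets read was not tested.

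TCF12, also called HEB, is the E protein best known from T cell development. Its brightest probe set, 208986_at, had signals of 1641, 1700 and 1730 in MALC and 1263, 1095 and 1182 in suspension, which did not overlap. It rose 1.43-fold (1690 ± 45.2 against 1180 ± 83.8, adjusted p = 0.00159). The next brightest, 238041_at, read 643, 574 and 551 in MALC and 578, 568 and 574 in suspension, and did not pass (log2 change 0.035, adjusted p = 0.749). The change of 238041_at was lower than that of 208986_at by 0.48 on the log2 scale within the same arrays (SE 0.09, adjusted p = 0.00831), so the probe sets of this gene changed unequally. The dimmer 233678_at and 215611_at (log2 changes 0.14 and 0.052) did not pass, and their differences from 208986_at, −0.38 and −0.46, had adjusted p of 0.0753 and 0.0760; blocked by sample number, the latter passed (0.0115) and the former did not (0.0544).

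TCF3 encodes E12 and E47, the E proteins central to B cell commitment and, in Burkitt lymphoma, to B cell receptor signalling. Only 1 of its 14 probe sets rose, 209153_s_at, at 4576, 4861 and 5083 in MALC and 3303, 4154 and 4089 in suspension. The groups did not overlap, and suspension 1 was the lowest array (1.26-fold, log2 change 0.34, adjusted p = 0.0237). The call was lost without MALC 2 (0.0772) or MALC 3 (0.0855). The brightest by mean log2 value, 210776_x_at, read 4448, 4333 and 4466 against 4150, 4328 and 4365 (log2 change 0.045, interval −0.066 to 0.16, adjusted p = 0.478). Within arrays, 209153_s_at changed more than 210776_x_at by 0.29 (adjusted p = 0.0351), a difference that did not pass without MALC 2 (0.114), MALC 3 (0.117), suspension 1 (0.0603) or suspension 3 (0.0625). The other 12 probe sets had log2 changes of −0.15 to 0.26. Of these, 215260_s_at (0.26, adjusted p = 0.108) passed once the sample number was a block (0.0305) and without MALC 1 (0.0291). Several TCF3 probe sets carry the suffix _x_at or _s_at, which marks probes that can match more than 1 transcript. The same holds for both ID2 probe sets, the tested LMO2 probe set and those of ID1 and ID3. It also holds for TCF4 213891_s_at and 222146_s_at and for IKZF1 205039_s_at, 216901_s_at and 1565818_s_at.

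Set against TCF3 within arrays, TCF4 was higher in MALC by 0.54 and TCF12 by 0.47 (brightest probe sets, no overlap, exact two-sided p = 0.1 for each, 0.18 adjusted over the 9 pairs), and TCF4 against TCF12 moved by 0.074 (exact p = 0.7).

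IKZF1 encodes Ikaros, a regulator of lymphoid development that lenalidomide-type drugs target for degradation. Of its 9 probe sets 8 were tested, 2 of them higher, 1 lower and 5 not called. The brightest, 227346_at, read 2885, 3351 and 3098 in MALC and 3069, 2212 and 2075 in suspension. Suspension 1 lay within the range of MALC while suspension 2 and 3 lay below it, and the change of 0.36 did not pass (1.28-fold, adjusted p = 0.0783). Next, 205039_s_at showed the same order, at 2545, 2973 and 2821 against 2713, 2007 and 2026 (log2 change 0.32, adjusted p = 0.0773). After quantile normalization both passed (0.0440 and 0.0415), but not with the sample number as a block as well (0.0578 and 0.0635).

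The rises were on the dim probe sets 216901_s_at, at 125, 139 and 121 against 112, 89.3 and 85.2 (log2 change 0.38, adjusted p = 0.0203), and 1565818_s_at, at 147.5, 159 and 149.7 against 142, 112 and 100.01 (0.34, adjusted p = 0.0435). In both the groups were separate, with suspension 1 nearest to MALC. Both calls rested on single arrays: that of 216901_s_at was lost without MALC 2 (0.0768), suspension 2 (0.0689) or suspension 3 (0.0712), and that of 1565818_s_at without any single array except suspension 1 (0.0593 without MALC 1, 0.131 without MALC 2, 0.0984 without MALC 3, 0.118 without suspension 2 and 0.131 without suspension 3), with no filter (0.0594) or after quantile normalization (0.0689). Leaving out suspension 1 instead brought 227346_at (log2 change 0.53, adjusted p = 0.00312), 205039_s_at (0.46, 0.0052), 205038_at (0.30, 0.0351), 227344_at (0.28, 0.0201) and 220704_at (0.70, 0.0159) past the threshold. The last also passed without MALC 1 (0.0161); its main change was 0.53 (adjusted p = 0.0517).

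IKZF1 probe set 1565817_at went the other way. It read 647, 623 and 536 in MALC and 876, 894 and 919 in suspension, with no overlap and no array standing apart in suspension. The fall was 1.48-fold (602 ± 58.8 against 896 ± 21.8; log2 change −0.57, SE 0.09, adjusted p = 0.00211), and it held in every alternative tried. Within arrays its change was lower than that of 227346_at by 0.93 (SE 0.17, adjusted p = 0.00687). Annotation assigned 1565817_at to IKZF1, as it did 1565818_s_at, which rose, and 1565816_at, which lay at 18.9 to 25.1 in all arrays and was not tested. Which transcript 1565817_at reads was not tested.

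**Figure D3:**
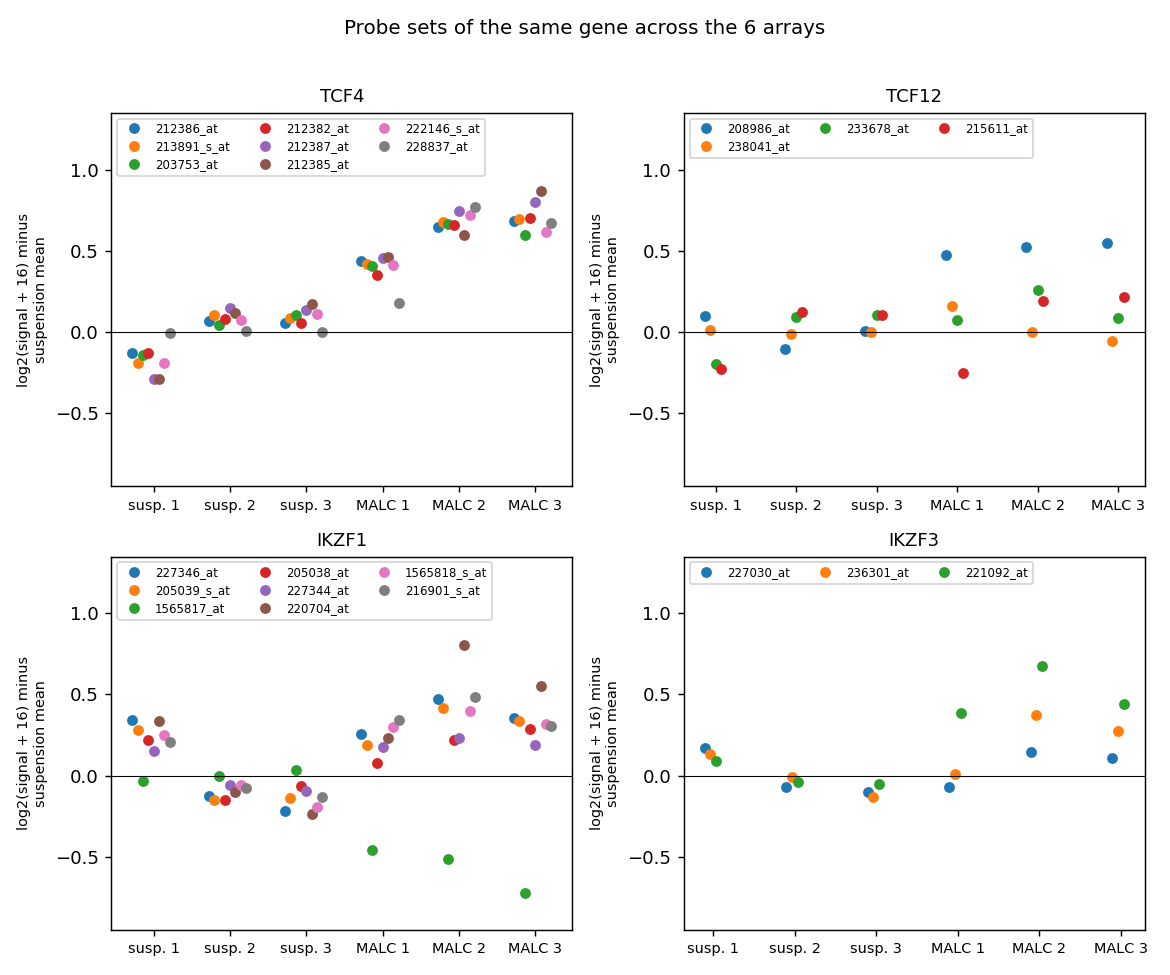
Log2(signal + 16) of each tested probe set of TCF4, TCF12, IKZF1 and IKZF3 minus its suspension mean (y axis) in each of the 6 arrays (x axis). The TCF4 probe sets lie together, TCF12 208986_at and IKZF3 221092_at lie above the others of their gene in MALC, and IKZF1 1565817_at lies below 0 in all MALC arrays.

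IKZF3 encodes Aiolos, the Ikaros relative of mature B cells. Its brightest probe set, 227030_at, read 1575, 1826 and 1781 in MALC and 1863, 1573 and 1536 in suspension, which overlapped, and did not pass (log2 change 0.061, interval −0.16 to 0.29, adjusted p = 0.636; 0.0182 with array weights). The dimmer 221092_at, at 397, 489.8 and 413 against 321, 292 and 289, did not overlap and rose 1.41-fold (adjusted p = 0.00507). Its change exceeded that of 227030_at by 0.44 (SE 0.08, adjusted p = 0.00786). The third, 236301_at (log2 change 0.22, adjusted p = 0.161), passed without MALC 1 (0.0229). IKZF1 minus IKZF3, by the brightest probe sets, was higher in MALC by 0.30, without overlap (exact p = 0.1, 0.18 adjusted).

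IKZF2 encodes Helios, which is mostly a T cell factor. Its 3 probe sets were dim, at 49.2 to 66.8 (1555060_a_at), 29.2 to 37.5 (220567_at) and 21.3 to 44.5 (231929_at) over the 6 arrays, and only the first was tested (log2 change −0.068, adjusted p = 0.619). Whether these signals were above background is not known, since no detection calls were used.

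In all, 4 of 33 within-gene differences between probe sets passed, 1 each in TCF3, TCF12, IKZF1 and IKZF3, where 29.4% of 12331 such differences over all genes did.

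LMO2 was read by 204249_s_at, at 231, 163 and 134.5 in MALC and 263, 297 and 266 in suspension. All MALC arrays lay below suspension, MALC 1 nearest to it, and the signal was 1.55-fold lower (176 ± 49.8 against 275 ± 19.0; log2 change −0.63, SE 0.17, adjusted p = 0.0196). The call was lost without MALC 2 (0.0711), MALC 3 (0.0561) or suspension 2 (0.0648). The second probe set, 231049_at, lay just under the filter and was not tested. It read 69.7, 42.2 and 46.7 in MALC and 55.3, 52.3 and 49.2 in suspension. In the fit with no filter its log2 change was −0.0072 (limma adjusted p = 0.976).

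The genes nearest to ID2 in profile, by root mean square distance between log2 values centred on each gene's mean over the 6 arrays, were GSDMB (0.072), PPP1R3E (0.077) and GCNA (0.080) of 13755 genes. Nearest to LMO2 were WDR83 (0.038), GALNT1 (0.046) and TRAPPC3 (0.056). With 6 arrays in 2 groups, such likeness mostly reflects the difference between the forms.

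Genes around these factors were read from 5 lists, each gene by its brightest probe set, and are given as counts and medians; of all 13765 genes tested, 2611 were higher and 3266 lower, with a median log2 change of −0.06. Of 15 tested relatives and helix-loop-helix partners or antagonists, 4 rose and 2 fell (median −0.08). BHLHE40, a hypoxia-induced repressor that binds E-boxes, is counted among the 4; it read 264, 158 and 207 in MALC and 42.4, 47.5 and 41.3 in suspension. All its suspension signals lay under the filter signal of 53.4, so it passed the filter only through MALC, and no fold or p is given for it. HES1, a Notch target and repressor, rose 1.69-fold (237 ± 24.7 against 136 ± 37.1, adjusted p = 0.00752). HEY1, a relative of HES1, rose 1.48-fold (adjusted p = 0.0252), which did not pass with MALC 2 (0.0911), MALC 3 (0.0849), suspension 2 (0.0815) or suspension 3 (0.0850) left out. Its groups overlapped, at 474, 623 and 623 in MALC and 479, 343 and 332 in suspension, with suspension 1 above MALC 1. LYL1, an E protein partner, was lower (log2 change −0.37, adjusted p = 0.00918), while TAL1 and ID4 did not pass.

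Of 15 tested cofactors of LMO2 and E proteins, 5 rose and 3 fell (median 0.15). CBFA2T2, a corepressor of the ETO family, rose 3.25-fold, from 365 ± 101 to 1205 ± 174 (adjusted p = 0.000615). FLI1, an ETS factor, rose 2.40-fold (adjusted p = 0.000837), and RUNX1T1, the ETO gene itself, 1.78-fold (209 ± 60.1 against 108 ± 14.2, adjusted p = 0.0116). The third ETO family gene, CBFA2T3, was lower (log2 change −0.35, adjusted p = 0.00404). LDB1, which holds the LMO2 complex together, had a log2 change of −0.18 and did not pass (adjusted p = 0.130).

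Of 16 tested B cell genes listed as targets of E proteins, 3 rose and 1 fell (median 0.04); blocked by sample number, 5 rose and 2 fell. CXCR4, a chemokine receptor, rose 2.63-fold, from 4708 ± 1330 to 12122 ± 1764 (adjusted p = 0.00196). FOXO1, a transcription factor acting with E proteins, rose by 0.32 on the log2 scale (adjusted p = 0.0258) and BLNK, a B cell receptor adaptor, by 0.28 (0.0383). FOXO1 did not pass with MALC 2 (0.0918), MALC 3 (0.0885), suspension 1 (0.0625) or suspension 2 (0.0547) left out, nor BLNK with MALC 2 (0.123), MALC 3 (0.0811), suspension 2 (0.131) or suspension 3 (0.124) left out. PAX5, EBF1, CD79A, CD79B and CCND3 did not pass; CD79B (0.0319) and CCND3 (0.0385) did with the block.

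Of 23 tested genes of IKZF repressor complexes and the cereblon ligase, 4 rose and 7 fell (median −0.09). MTA2 and GATAD2A, subunits of the NuRD complex, were 2.24-fold (58.5 ± 17.8 against 148 ± 14.3, adjusted p = 0.00114) and 1.83-fold lower (1627 ± 402 against 2932 ± 33.3, 0.00312). CHD3, a NuRD helicase, was 1.40-fold lower (0.00406). CRBN, the cereblon gene through which IKZF1 and IKZF3 are degraded by lenalidomide, was higher (log2 change 0.31, adjusted p = 0.0301), and DDB1 of the same ligase lower (−0.47, 0.00272). Neither call was examined with single arrays left out.

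Of 17 tested BMP, TGF-beta and SMAD genes, which control ID transcription, together with USP1, 7 rose and 3 fell (median −0.05). The receptor genes BMPR2 and TGFBR1 rose 1.56- and 1.55-fold (adjusted p = 0.0015 and 0.000345). SMAD7, an inhibitory SMAD counted among the 7, read 82.8, 84.7 and 83.8 in MALC and 44.5, 52.2 and 47.4 in suspension; it too passed the filter only through MALC, and no fold or p is given. USP1, which stabilises ID proteins, was lower (log2 change −0.37, adjusted p = 0.0153). EGR1, an early response factor that activates ID3, was named after its values were seen. It read 75.8, 56.0 and 48.2 in MALC and 59.5, 1218 and 1224 in suspension 1, 2 and 3, so that suspension 1 lay with MALC. The change did not pass (log2 change −2.70, adjusted p = 0.0596), but did when blocked by sample number (0.0444).

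**Figure D4:**
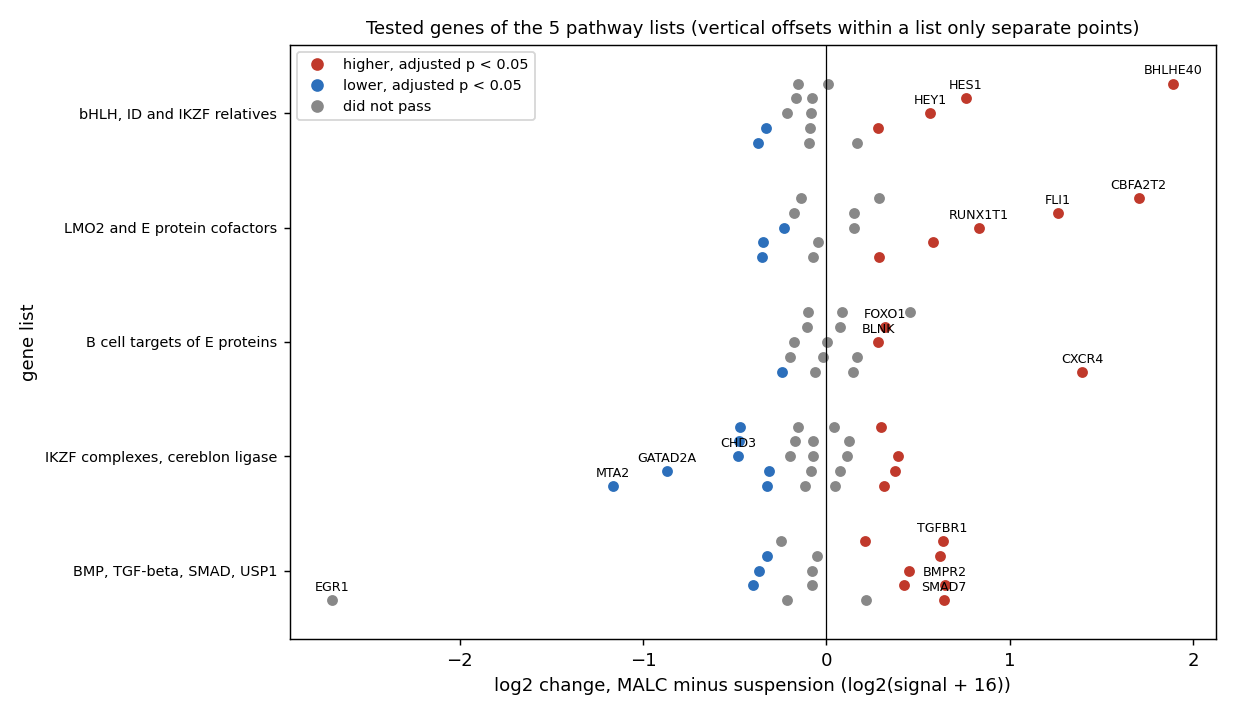
Log2 change (MALC minus suspension, x axis) of each tested gene of the 5 lists (y axis; height within a list only separates points), coloured by call. MTA2 lies at −1.16 and CBFA2T2 at 1.70, BHLHE40 and SMAD7 passed the filter only through MALC, and EGR1 at −2.70 did not pass.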

How the data were processed

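RNA of 3 MALC and 3 suspension samples of RL cells was read on 1 Affymetrix U133 array each. The deposited values were linear intensities per probe set; MAS5 is the only tool named, per the submitters' processing notes, and background correction and scaling are not stated by the sources used here. If arrays had been scaled to each other, a shift of all transcripts would not be seen. No scanner files were used.

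Titles gave each sample's group and number. The platform annotation gave 41091 of the 54613 non-control probe sets 1 symbol, 1801 several and 11721 no symbol; 41037 of the first were updated through Entrez IDs with RefSeq (GRCh38.p14). Values were set to log2(value + 16), probe sets at or above the 40th percentile of mean log2 value kept, and MALC tested against suspension with limma 3.58.1 (R 4.3.3; lmFit, eBayes with trend, two-sided, Benjamini-Hochberg over all probe sets, genes or within-gene differences tested, threshold 0.05). The fit was tested on simulated data. Paralogs were compared by exact permutation over arrays, a test added after the data were seen.

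Members and gene lists were chosen with earlier results of these data known. Named were all member probe sets, up to 3 genes per list, those past the threshold that changed most, and the 3 nearest profiles to the largest rise and fall; other list members and EGR1 were named after their values were seen. Of these, the calls of LYL1, CBFA2T3, CRBN, DDB1 and USP1 were not examined with single arrays left out.

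Between arrays of the same number, deviations from the means of their groups had correlations of 0.25 (number 1), 0.17 (2) and 0.14 (3). The crossed pairs of samples 2 and 3 had like correlations (0.18 for MALC 3 and suspension 2, 0.14 for MALC 2 and suspension 3). These values therefore do not show samples 2 and 3 to be paired by number, and the labels do not say what the numbers mark. The main fit was unpaired, and the sample number entered as a block only in an alternative. Other alternatives were pseudocounts of 1 and 64, no filter and a 60th percentile filter, median centring, quantile normalization, no trend, array weights, tests by gene and leaving out each array.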

Additional observations from a re-analysis of the deposited data

Results flagged for a closer look

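Outside the chosen probe sets, 213931_at, annotated to both ID2B and ID2, differed between the forms, with signals of 782, 1285 and 1452 in MALC and 223, 215 and 252 in suspension (log2 change 2.23, SE 0.21, limma adjusted p = 0.000377). ID2B is annotated as a gene of its own, and a signal from ID2 cannot be told apart there. The antisense transcript ID2-AS1 did not pass on 236719_at (log2 change 0.01, adjusted p = 0.925) and lay at 30.5 to 36.6 on 229756_at, and TCF4-AS1 lay at 13.5 to 18.9; the latter pair were under the filter. Groups of 3 are too small for a test of single outlying samples.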

How the results depend on the processing

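Of 724 comparisons of a tested member probe set with an alternative, 662 kept direction and side of the threshold. The 15 higher and 2 lower member probe sets became 16 and 2 under the replicate block (sample number), where TCF3 215260_s_at was the 1 member call that changed, 23 higher with array weights and 23 without both arrays numbered 1 (chosen after seeing the data), and 3 and 1 with 1 test per gene, which tests 10 genes. Leaving out 1 array gave 11 to 20 higher and 1 to 2 lower. Over all probe sets 6948 were higher and 6701 lower; the counts were 9400 and 10306 with array weights, 9050 and 9084 without both arrays numbered 1, 6628 and 7605 after quantile normalization, and 2611 and 3266 with 1 test per gene. Leaving out 1 array gave 5022 to 7615 higher and 4409 to 7450 lower, both lowest without MALC 2. List genes numbered 23 higher and 16 lower, with 26 and 19 under the block, 31 lower under array weights, 27 lower without both arrays numbered 1, and 16 to 27 higher and 10 to 18 lower with 1 array left out. The 4 differences between probe sets became 7 with a pseudocount of 64, 7 after quantile normalization, 8 with array weights, 9 without both arrays numbered 1, and 3 to 5 with 1 array left out. Sign changes, all in probe sets that did not pass either way, were TCF3 213732_at (−0.082 with array weights, −0.13 without both arrays numbered 1, −0.072 to 0.093 with 1 array left out, negative without MALC 1, −0.021, and suspension 1), TCF12 238041_at (−0.0060 after quantile normalization, with or without the block, −0.022 without both arrays numbered 1, −0.028 to 0.080 with 1 array left out, negative without MALC 1), TCF12 215611_at (−0.062 to 0.20 with 1 array left out, negative without suspension 1, MALC 2, −0.018, and MALC 3, −0.029), ID3 (0.032 with array weights, 0.0097 without both arrays numbered 1, −0.18 to −0.040 with 1 array left out) and IKZF2 1555060_a_at (−0.14 to 0.030 with 1 array left out, positive without MALC 2). The cause of these shifts was not tested. A fit without both arrays numbered 1 compares nearly alike arrays, so its p-values rest on a small spread. Signal over background is unknown without detection calls, which limits what dim probe sets show.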
